A study of Mus musculus with 8 samples.

Results

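The genes described here are 55 genes of DNA replication licensing and of the replication fork, taken by symbol from the 23361 genes in the deposited expression table. They encode the origin recognition complex, the factors that load the helicase, the MCM helicase and its activators, the primase and polymerases, the sliding clamp and its loaders, replication protein A, the enzymes of the lagging strand, and chromatin and topology proteins at the fork. The rule takes them by symbol and uses no measured value, although it was drawn up with earlier results of these data known, and all 55 were found in the table. Their expression was compared between iTreg that carried Nrp-1 on the surface and iTreg that did not.

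RNA was sequenced from 4 libraries of Nrp-1+ iTreg and 4 of Nrp-1- iTreg, which are labelled as biological replicates 1 to 4 of each group. Both groups came from the same kind of culture, of wild-type cells from Foxp3-RFP reporter mice, which mark Foxp3 expression with a red fluorescent protein. The mice were 7 to 8 weeks of age. Naive CD4+ T cells, CD44low and CD62Lhigh, were stimulated with anti-CD3/CD28 beads at 1 bead for 5 cells, with IL-2 at 50 U/ml and TGF-β at 2 ng/ml. Viable CD4+ cells with Foxp3-RFP were then sorted and split by Nrp-1, so the groups share genotype, stimulation, cytokines and the Foxp3 gate and by the labels differ in the Nrp-1 gate. The labels give 3 days of culture in one field and day 5 in another, and the library kit they name differs from that in the methods of the study. Those methods name the spleen as the source of the naive cells and put the sort on day 3. They state the IL-2 dose by mass, whereas the 50 U/ml given here is from the labels. Nothing in the labels says whether the replicates were separate mice or cultures, so the p-values below measure the spread between these libraries, which may be technical. The natural Treg of the study were not analysed here. In whole-population RNA, a larger share of cells in S phase and more RNA of these genes per cell cannot be told apart.

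Before S phase, the origin recognition complex marks origins on the DNA, and CDC6 and CDT1 use it to load the ring of MCM2 to MCM7, a step called licensing that geminin blocks once replication has begun. The kinases CDC7 and CDKs then add CDC45 and the GINS complex to the ring, which becomes the active helicase, and primase, polymerases, the PCNA clamp and the lagging-strand enzymes follow it at the fork. Many of these genes are known targets of the E2F transcription factors, which act in late G1 and S phase. In T cells they are low at rest and come up with the division that follows activation.

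Promoter sequences are shown first, because an E2F site is the feature that many of these genes are known to share and the members differed in it. A RefSeq promoter (assembly GRCm38.p6, from 250 bases before to 50 bases after the start of the gene) was found for 45 of the 55 members. The 10 others were Pole, Atad2, Gmnn, Gins1, Gins2, Dscc1, Mcm4, Gins4, Rfc2 and Prim2. Capitals mark matches to TTTCCCGC, TTTGGCGC, TTTCGCGC, TTTGCCGC or GGCGGGAA on either strand, and all other bases are in lower case, 5′ to 3′ on the strand of the gene. Shown are Mcm5 (chr8:75109259-75109558, plus strand), a helicase gene with a large difference, Cdc6 (chr11:98907901-98908200, plus strand), a loading factor, Orc1 (chr4:108579204-108579503, plus strand) and Orc3 (chr4:34614893-34615192, minus strand), a called and an uncalled gene of the same complex, and Mcm10 (chr2:5012742-5013041, minus strand), which had a large difference and none of these strings whole in the window, although its last bases, TTTGGCG, are the start of TTTGGCGC and the base after them lies outside the window.
Mcm5: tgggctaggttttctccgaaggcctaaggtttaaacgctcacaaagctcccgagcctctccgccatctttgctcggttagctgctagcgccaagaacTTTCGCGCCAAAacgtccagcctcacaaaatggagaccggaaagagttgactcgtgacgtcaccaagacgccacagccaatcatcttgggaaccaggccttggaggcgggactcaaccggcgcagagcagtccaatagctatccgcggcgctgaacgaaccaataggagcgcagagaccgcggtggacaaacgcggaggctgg
Cdc6: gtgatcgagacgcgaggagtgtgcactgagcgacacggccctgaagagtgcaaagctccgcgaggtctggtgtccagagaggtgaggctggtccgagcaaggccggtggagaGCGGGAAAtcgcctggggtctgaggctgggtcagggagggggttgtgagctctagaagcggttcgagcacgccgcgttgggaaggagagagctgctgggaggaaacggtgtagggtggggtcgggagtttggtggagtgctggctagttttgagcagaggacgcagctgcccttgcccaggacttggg
Orc1: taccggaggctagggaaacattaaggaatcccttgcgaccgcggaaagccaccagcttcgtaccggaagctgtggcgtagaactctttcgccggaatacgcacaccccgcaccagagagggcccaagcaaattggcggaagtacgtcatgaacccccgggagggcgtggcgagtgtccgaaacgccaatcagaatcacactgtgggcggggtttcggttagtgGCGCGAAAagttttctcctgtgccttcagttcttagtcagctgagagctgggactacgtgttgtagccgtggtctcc
Orc3: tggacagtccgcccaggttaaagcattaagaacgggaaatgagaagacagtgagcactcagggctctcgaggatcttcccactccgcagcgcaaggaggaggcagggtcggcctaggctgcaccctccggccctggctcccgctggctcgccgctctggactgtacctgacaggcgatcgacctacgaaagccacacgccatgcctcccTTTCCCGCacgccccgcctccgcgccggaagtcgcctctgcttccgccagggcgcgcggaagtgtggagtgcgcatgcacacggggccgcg
Mcm10: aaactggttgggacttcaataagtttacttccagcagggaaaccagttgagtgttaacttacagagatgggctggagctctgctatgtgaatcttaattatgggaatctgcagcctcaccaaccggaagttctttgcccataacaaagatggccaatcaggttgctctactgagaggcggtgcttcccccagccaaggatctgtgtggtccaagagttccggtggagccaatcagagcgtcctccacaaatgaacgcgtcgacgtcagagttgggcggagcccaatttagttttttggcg

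In Mcm5 the capitals hold TTTCGCGC and, overlapping it on the other strand, TTTGGCGC, at positions -153 and -149 from the start of the gene. In Cdc6 the match was TTTCCCGC on the other strand at position -138, and in Orc1 it was TTTCGCGC on the other strand at position -27. Orc3, which did not differ between the groups by the test below, held TTTCCCGC at position -41. Either form of the site was present in 22 of the 45 members with a promoter (48.9%), against 4.46% of the 27025 genes with a promoter and 8.86% of the 7700 tested genes with one. The strings that begin with TTT were found in 17 members (37.8%) and GGCGGGAA in 8 (17.8%), and the strings can overlap, since TTTCCCGC on the other strand reads GCGGGAAA. Of the 39 members at least 1.5-fold higher in Nrp-1+ iTreg, 30 had a promoter, and 17 of these held a site (56.7%). The share was 3 of 11 among those called with a smaller difference (27.3%) and 2 of 4 among those not called (50.0%). These groups are small, the uncalled one too small to rank, and their shares were not tested against each other. Where a gene had several windows, a site in any of them was counted. Base composition moves with such counts: the median GC content of the windows was 63.0% in members, 61.3% in tested genes and 52.7% in all genes with a promoter. Of the other motifs searched, CCAAT was in 55.6% of members, 43.6% of tested genes and 41.1% of all genes, the GC box GGGCGG in 77.8%, 70.9% and 38.2%, and TTTGAA in 15.6%, 13.9% and 20.2%. A match describes letters in a window, and no factor binding was measured in these samples.

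The deposited values are FPKM, in which fragments are scaled by transcript length and by library size, so levels can be compared between genes. A gene was tested where its mean over the 8 libraries was at least 1 FPKM, which held for 10467 genes and for all 55 members. Differences are given as log2 fold changes on log2(FPKM + 1), Nrp-1+ over Nrp-1- iTreg, which understate the change of low genes, and were tested by limma with Benjamini-Hochberg adjustment over all genes tested. The sort was visible in the RNA: Nrp1 was 21.5 ± 0.709 FPKM in Nrp-1+ iTreg and 4.95 ± 0.262 in Nrp-1- iTreg (SD, n = 4), a log2 fold change of 1.92. Foxp3, the gene of the shared gate, was 116 ± 3.72 and 108.8 ± 1.20 FPKM, a log2 fold change of 0.09 (adjusted p = 0.0245 by limma, from 0.0131 to 0.10 over the other settings). The relative depth of the libraries, read from low genes, lay between 0.994 and 1.22 in Nrp-1+ iTreg and between 0.810 and 1.24 in Nrp-1- iTreg, and median-of-ratios size factors lay between 0.999 and 1.00.

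Summed levels of T cell and Treg markers (Cd3d, Cd3e, Cd3g, Cd4, Foxp3, Il2ra, Ctla4) were 1923 to 1968 FPKM in Nrp-1+ iTreg and 1962 to 2071 in Nrp-1- iTreg, and 2 of the 7 were called higher and 3 lower. Of markers of other cells, the myeloid and dendritic sum was 6.56 to 7.30 against 5.54 to 6.32 FPKM, nearly all of it Itgam, the 1 of the 8 that was tested and which was called higher. Lyz2, Csf1r, Cd14, Itgax, Flt3 and Adgre1 lay at or near 0. The erythroid sum was 5.49 to 7.57 against 2.05 to 3.32 FPKM, nearly all of it the haemoglobin gene Hba-a1 (log2 fold change 1.02, adjusted p = 0.000510 by limma), while Hba-a2, Hbb-bs and Alas2 lay at or near 0. The sums of B cell markers (5.21 to 5.91 against 4.01 to 5.80 FPKM, with Ms4a1 and Pax5 at 0) and NK cell markers (4.10 to 5.26 against 4.47 to 5.75 FPKM) overlapped. Most of the B cell sum was Cd79b (5.09 against 4.58 FPKM) and most of the NK cell sum was Klrd1 (3.67 against 4.55 FPKM). Neither gene was called. The CD8 sum was lower in Nrp-1+ iTreg (7.10 to 8.78 against 9.33 to 11.4 FPKM), with Cd8a near 0 in all 8 libraries. Nearly all of it was Cd8b1, which was called lower (log2 fold change -0.31, adjusted p = 0.0119 by limma). Summed over genes whose symbols begin with Rps or Rpl, which are mostly ribosomal protein genes, expression was 214800 to 228400 FPKM in Nrp-1+ iTreg and 230000 to 261800 in Nrp-1- iTreg, without overlap. The part of these levels in the differences below was not tested.

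Most of the replication genes were expressed more highly in Nrp-1+ iTreg. Of the 55 members, 51 (92.7%) were called higher at an adjusted p under 0.05, against 20.9% of all genes tested, and 0 were called lower, against 20.0% of all genes tested. By limma 0 members were lower at an unadjusted p under 0.05 as well. The 4 that were not called were all subunits of the origin recognition complex, Orc2, Orc3, Orc4 and Orc5. At least 1.5-fold higher were 39 members (70.9%), against 4.21% of all genes tested. The median log2 fold change of the members was 0.71 (quartiles 0.53 and 0.84), and that of all genes tested was -0.02 (quartiles -0.12 and 0.12). As ratios of mean FPKM the members ran from 0.921 to 2.11 with a median of 1.72, and 8 of them reached 2.

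In 51 members every Nrp-1+ library lay above every Nrp-1- library, as it did in 20.2% of all genes tested, and such a gene has p = 0.0286 in an exact Mann-Whitney test (two-sided), the smallest that 4 libraries against 4 allow. The libraries of a group were close to each other. Summed over the 55 members, expression was 2453 to 2489 FPKM in the Nrp-1+ libraries and 1539 to 1572 in the Nrp-1- libraries, and the median SD within a group was 0.0616 on the log2 scale. Among all genes called, 51.1% were higher in Nrp-1+ iTreg, and this share was 40.1% when each library was corrected for GC content and transcript length (added once the data had been seen), under which 50 of the members were called higher.

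**Figure D1:**
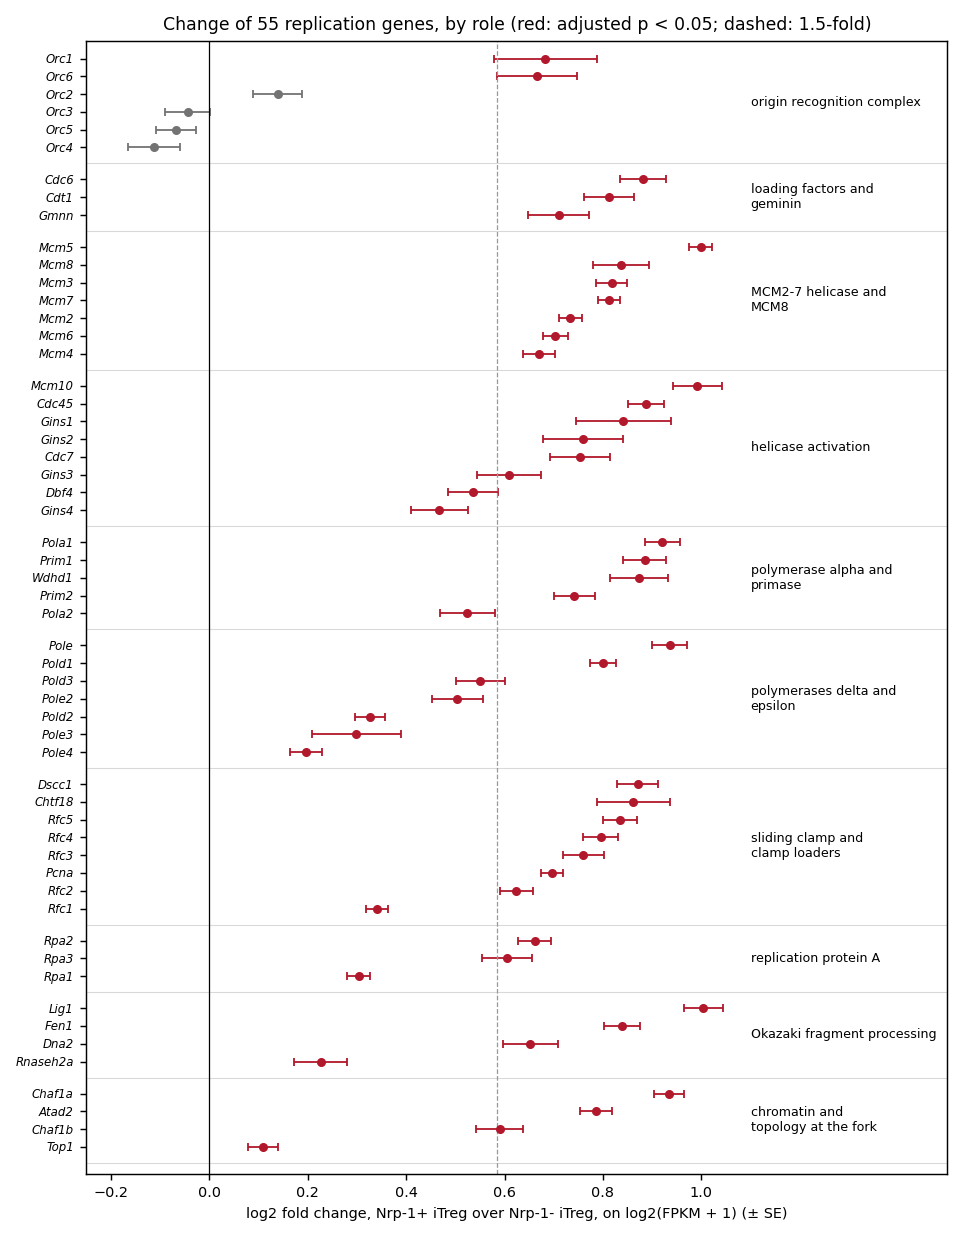
Log2 fold change on log2(FPKM + 1), Nrp-1+ over Nrp-1- iTreg (points, ± SE, 4 libraries a group), of the 55 replication genes grouped by role, with genes called at an adjusted p under 0.05 in red, uncalled genes in grey and a dashed line at 1.5-fold. The 4 grey genes all belong to the origin recognition complex, and the genes with the largest differences, Lig1, Mcm5 and Mcm10, lie near 1.00.

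The origin recognition complex was divided. Its 6 subunits bind origin DNA, and ORC1 is the one whose level is known to follow the cell cycle. Orc1 was the lowest of all 55 members, at 2.62, 3.06, 2.62 and 2.53 FPKM in the 4 Nrp-1+ libraries and 0.983, 1.31, 1.78 and 1.23 FPKM in the 4 Nrp-1- libraries. Its log2 fold change was 0.68 ± 0.10 (SE, adjusted p = 0.00125 by limma), and the ratio of its means was 2.05, since a pseudocount weighs heavily on a gene this low. Orc6 was 27.3, 28.0, 26.2 and 25.3 FPKM against 13.6, 17.5, 17.2 and 18.0 FPKM, a log2 fold change of 0.67 ± 0.08 (adjusted p = 0.000376 by limma). Neither gene's groups overlapped, and replicate 1 stood lowest of the Nrp-1- libraries in both.

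The other subunits had nearly equal levels in both groups. Orc2 was 13.5, 13.7, 13.1 and 11.7 FPKM in Nrp-1+ iTreg and 11.0, 11.6, 12.1 and 12.0 FPKM in Nrp-1- iTreg (log2 fold change 0.14, 95% interval 0.02 to 0.25, adjusted p = 0.0582 by limma). All its Nrp-1+ libraries but replicate 4 lay above all Nrp-1- libraries, and without that replicate it was called higher (0.18, adjusted p = 0.00783, with 0.00783 to 0.157 over all other settings). Orc3 was 10.9, 10.4, 10.1 and 9.27 FPKM against 10.7, 10.4, 10.1 and 10.7 FPKM (log2 fold change -0.04, 95% interval -0.15 to 0.06), and its groups overlapped throughout.

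Orc4 was 12.2, 13.7, 12.3 and 11.6 FPKM in Nrp-1+ iTreg and 13.9, 12.7, 14.0 and 13.6 FPKM in Nrp-1- iTreg (log2 fold change -0.11, 95% interval -0.23 to 0.01, adjusted p = 0.125 by limma). Replicate 2 of Nrp-1+ iTreg was the one that reached into the other group, and without it Orc4 was called lower (-0.16, adjusted p = 0.0265), as it was with the correction for GC content and length (-0.15, adjusted p = 0.0358). Over all other settings its adjusted p ran from 0.0265 to 0.268. Orc5 was 18.9, 16.9, 18.1 and 17.3 FPKM against 19.2, 19.4, 18.3 and 17.9 FPKM (log2 fold change -0.07, 95% interval -0.16 to 0.02). The intervals of Orc3, Orc4 and Orc5 lie below the 1.5-fold line, at 0.585 on the log2 scale. Set against Orc4 within each library, Orc6 stood at 2.04 to 2.23 in Nrp-1+ iTreg and 0.975 to 1.38 in Nrp-1- iTreg, and Orc1 at 0.213 to 0.223 and 0.0706 to 0.127. In order of level, the complex ran Orc6, Orc5, Orc2, Orc4, Orc3, Orc1 in Nrp-1+ iTreg, with Orc2 and Orc4 overlapping, and Orc5, Orc6, Orc4, Orc2, Orc3, Orc1 in Nrp-1- iTreg, with Orc5 overlapping Orc6 and Orc6 overlapping Orc4.

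The loading factors were all higher in Nrp-1+ iTreg. Cdc6, the ATPase that recruits the helicase to the origin, was 12.1, 12.6, 11.8 and 12.2 FPKM in Nrp-1+ iTreg and 5.76, 6.06, 6.78 and 6.02 FPKM in Nrp-1- iTreg, a log2 fold change of 0.88 ± 0.05 (adjusted p = 2.66e-06 by limma). Cdt1, which brings in the MCM ring, was 39.4, 40.5, 39.9 and 40.8 FPKM against 23.2, 23.7, 19.9 and 23.2 FPKM (0.81 ± 0.05), with replicate 3 of Nrp-1- iTreg low beside the others of its group. Gmnn, which encodes geminin, the inhibitor of CDT1, was 88.9, 82.9, 90.1 and 85.4 FPKM against 49.5, 49.0, 53.2 and 59.7 FPKM (0.71 ± 0.06). The groups did not overlap in any of the 3 genes. The inhibitor and its target stood in a ratio of 2.05 to 2.26 in Nrp-1+ iTreg and 2.07 to 2.67 in Nrp-1- iTreg, so that the ratio overlapped while both levels did not.

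The helicase genes Mcm2 to Mcm7 and Mcm8, a related helicase of DNA repair, were all called at log2 fold changes of 0.67 to 1.00, each at least 1.5-fold. Mcm5 was 81.7, 83.5, 81.5 and 85.3 FPKM in Nrp-1+ iTreg and 42.2, 40.2, 40.8 and 41.0 FPKM in Nrp-1- iTreg, a log2 fold change of 1.00 (95% interval 0.94 to 1.05, SE 0.02, adjusted p = 1.6e-07 by limma). Mcm4 had the smallest difference of the 7, at 72.9, 71.3, 70.4 and 68.3 FPKM against 45.0, 45.6, 43.8 and 41.9 FPKM (0.67 ± 0.03). The groups of both genes were far apart and narrow. Mcm8, at 5.93 ± 0.0695 against 2.89 ± 0.297 FPKM (SD, n = 4), was much lower in level than the ring genes, with a log2 fold change of 0.84. The pseudocount lowers this value, and as a ratio of means Mcm8 stood at 2.05 and Mcm5 at 2.02.

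The 6 proteins of the MCM ring are present in equal number in the complex, whereas their mRNA levels were spread. From high to low they ran Mcm7 (124 ± 2.66 FPKM, SD, n = 4), Mcm6, Mcm3, Mcm5, Mcm4 and Mcm2 (43.5 ± 0.788 FPKM) in Nrp-1+ iTreg, with no overlap between neighbours. In Nrp-1- iTreg the order was Mcm7 (70.2 ± 1.06 FPKM), Mcm6, Mcm3, Mcm4, Mcm5 and Mcm2 (25.8 ± 0.538 FPKM), and here Mcm4 and Mcm5 overlapped. The ratio of Mcm5 to Mcm4 within a library was 1.12 to 1.25 in Nrp-1+ iTreg and 0.881 to 0.979 in Nrp-1- iTreg, whereas that of Mcm2 to Mcm7 overlapped, at 0.340 to 0.363 and 0.349 to 0.378. Ratios between members were chosen after their values were seen and are given without a test.

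**Figure D2:**
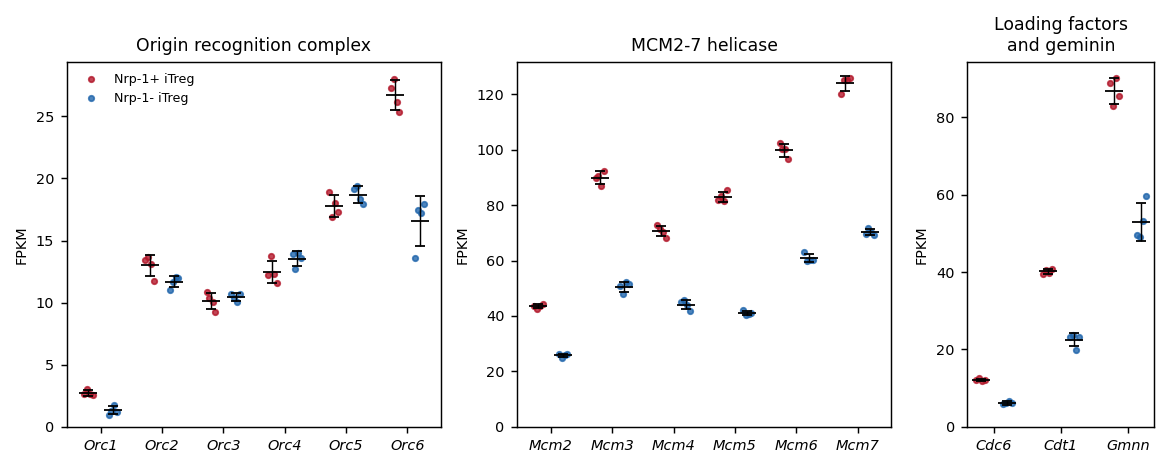
FPKM of the origin recognition complex, MCM2-7 and loading factor genes in each library (points), with group mean and SD (bars), Nrp-1+ iTreg in red and Nrp-1- iTreg in blue, 4 libraries each. Orc2 to Orc5 overlap between the groups, while in each MCM gene the Nrp-1+ libraries stand clear of the Nrp-1- libraries, for example Mcm7 at 120.1 to 126 FPKM against 69.2 to 71.7.

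Among the genes that turn the loaded ring into a working helicase, all 8 were called and 6 were at least 1.5-fold higher. Mcm10, which is needed to start unwinding, was 17.3, 16.2, 16.5 and 16.7 FPKM in Nrp-1+ iTreg and 7.62, 7.31, 7.92 and 8.76 FPKM in Nrp-1- iTreg, a log2 fold change of 0.99 (95% interval 0.88 to 1.11, SE 0.05, adjusted p = 2.22e-06 by limma). As a ratio of means, 2.11, it was the largest of the 55. The smallest was Gins4, a subunit of the GINS complex, at 47.1, 48.6, 45.8 and 46.9 FPKM against 32.7, 31.0, 33.7 and 38.1 FPKM (0.47 ± 0.06), and in neither gene did the groups overlap.

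The 4 GINS subunits form one complex in equal numbers, but Gins4 was the most abundant and changed least, with log2 fold changes of 0.84 for Gins1, 0.76 for Gins2, 0.61 for Gins3 and 0.47 for Gins4. The ratio of Gins4 to Gins1 was 3.46 to 4.41 in Nrp-1+ iTreg and 4.96 to 6.26 in Nrp-1- iTreg. Cdc45, the partner of GINS on the ring, had a log2 fold change of 0.89 (39.5 ± 1.57 against 20.9 ± 0.806 FPKM, SD, n = 4). The kinase gene Cdc7 and its activator Dbf4 were higher by 0.75 and 0.54, and their ratio within a library overlapped between the groups.

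Polymerase α with primase lays down the RNA and DNA primer from which every new strand starts. Its genes were all called, with log2 fold changes of 0.52 to 0.92. Pola1, the catalytic subunit, was 15.5, 15.5, 15.2 and 14.4 FPKM in Nrp-1+ iTreg and 7.61, 7.16, 7.86 and 7.47 FPKM in Nrp-1- iTreg (0.92 ± 0.04, adjusted p = 5.45e-07 by limma). Pola2, its accessory subunit, was 29.8, 28.0, 29.7 and 29.7 FPKM against 18.5, 19.1, 22.4 and 20.5 FPKM (0.52 ± 0.06). The catalytic subunit was thus the lower in level and had the larger difference, and replicate 2 of Nrp-1+ iTreg was low in Pola2. The primase genes Prim1 and Prim2 were higher by 0.88 and 0.74, and Wdhd1, which ties the polymerase to the helicase, by 0.87.

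Polymerases δ and ε, which copy the lagging and the leading strand, had log2 fold changes from 0.20 to 0.94, all called, and 2 of their 7 genes were at least 1.5-fold higher. These were the catalytic subunits. Pole was 16.1, 16.9, 15.3 and 16.4 FPKM in Nrp-1+ iTreg and 8.03, 8.07, 8.16 and 7.63 FPKM in Nrp-1- iTreg, a log2 fold change of 0.94 (95% interval 0.85 to 1.02, SE 0.04, adjusted p = 4.9e-07 by limma), and Pold1 was higher by 0.80. The accessory subunits changed less, by 0.55 for Pold3, 0.50 for Pole2, 0.33 for Pold2, 0.30 for Pole3 and 0.20 for Pole4.

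Pole4, a small histone-fold subunit of polymerase ε, was 45.1, 47.2, 47.6 and 44.7 FPKM in Nrp-1+ iTreg and 39.5, 41.3, 41.4 and 38.5 FPKM in Nrp-1- iTreg (0.20 ± 0.03, adjusted p = 0.00187 by limma). Its groups were separate but close, and Pole4 was more abundant per length than the catalytic subunit in both. The ratio of Pole4 to Pole was 2.73 to 3.11 in Nrp-1+ iTreg and 4.92 to 5.12 in Nrp-1- iTreg, and that of Pold2 to Pold1 was 1.03 to 1.08 and 1.39 to 1.58. Pole3, the partner of Pole4, had an adjusted p of 0.0300 by limma, and 0.0209 to 0.0828 over the other settings. It was not called without a filter (adjusted p = 0.0515), with the correction for GC content and length (0.0828), or without replicate 1, 2 or 4 of Nrp-1+ iTreg or replicate 1 of Nrp-1- iTreg (0.0627 to 0.0786).

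The sliding clamp holds polymerases on the DNA and is opened by replication factor C. Pcna, the clamp itself, was by far the most abundant of the 55, at 508, 502, 506 and 489 FPKM in Nrp-1+ iTreg and 304, 304, 316 and 313 FPKM in Nrp-1- iTreg (log2 fold change 0.70 ± 0.02, adjusted p = 2.94e-07 by limma). Next in level was Mcm7 at 124 FPKM in Nrp-1+ iTreg and Rpa1 at 91.9 FPKM in Nrp-1- iTreg, so the clamp gene stood well above every other member in both groups. The gene annotation names processed copies of Pcna (Pcna-ps1 and Pcna-ps2), and how reads shared with them were counted is not given in the sources used here.

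All 8 clamp and clamp loader genes were called, and 7 were at least 1.5-fold higher. Dscc1, a subunit of an alternative loader that acts with cohesion of sister chromatids, had the largest log2 fold change of the group, at 7.84, 8.33, 8.50 and 8.06 FPKM in Nrp-1+ iTreg and 4.35, 3.91, 3.86 and 3.99 FPKM in Nrp-1- iTreg (0.87 ± 0.04). Chtf18, the large subunit of the same loader, was higher by 0.86. Rfc1, the large subunit of the main loader, had the smallest difference, at 30.4, 31.5, 30.5 and 30.4 FPKM against 24.3, 23.6, 23.7 and 24.4 FPKM (0.34 ± 0.02), without overlap between the groups. The small subunits Rfc2 to Rfc5, which both loaders share, were higher by 0.62 to 0.83. Rfc1 lay above Rfc5 in each Nrp-1- library, at a ratio of 1.18 to 1.26, and below it in each Nrp-1+ library, at 0.836 to 0.892.

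Replication protein A coats the single-stranded DNA that the helicase leaves behind. Rpa2 was 51.7, 48.8, 51.4 and 50.8 FPKM in Nrp-1+ iTreg and 29.9, 31.7, 32.9 and 32.3 FPKM in Nrp-1- iTreg (0.66 ± 0.03, adjusted p = 2.24e-06 by limma). Rpa1, the large subunit, was 110.2, 116, 114 and 114 FPKM against 92.7, 89.8, 93.0 and 92.1 FPKM (0.30 ± 0.02, adjusted p = 2.11e-05 by limma). Neither gene's groups overlapped, but Rpa1, the most abundant of the 3, changed less, and the ratio of Rpa1 to Rpa2 was 2.13 to 2.38 in Nrp-1+ iTreg and 2.83 to 3.10 in Nrp-1- iTreg. Rpa3 was higher by 0.61.

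Of the enzymes that process Okazaki fragments, Lig1, the ligase that seals them, had the largest log2 fold change of all 55 members. It was 58.5, 65.4, 61.7 and 63.1 FPKM in Nrp-1+ iTreg and 30.3, 32.0, 30.3 and 29.4 FPKM in Nrp-1- iTreg (1.00, 95% interval 0.92 to 1.09, SE 0.04, adjusted p = 5.25e-07 by limma). On the log2(FPKM + 1) scale it was the 1 member that reached 2-fold. The flap nuclease genes Fen1 and Dna2 were higher by 0.84 and 0.65. Rnaseh2a, the catalytic subunit of the ribonuclease that removes RNA from DNA, was 17.2, 18.3, 19.0 and 18.8 FPKM against 14.2, 14.9, 16.5 and 16.4 FPKM (0.23 ± 0.05, adjusted p = 0.0106 by limma), with a narrow gap between the groups.

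Behind the fork, CAF-1 places new histones on the copied DNA. Its large subunit gene Chaf1a was 26.6, 25.5, 24.6 and 25.7 FPKM in Nrp-1+ iTreg and 12.8, 12.6, 12.8 and 13.5 FPKM in Nrp-1- iTreg (0.93, 95% interval 0.86 to 1.01, SE 0.03, adjusted p = 3.1e-07 by limma), and Chaf1b, the middle subunit, was higher by 0.59. The ratio of Chaf1a to Chaf1b was 1.15 to 1.33 in Nrp-1+ iTreg and 0.867 to 0.994 in Nrp-1- iTreg, which did not overlap. Atad2, a chromatin ATPase, was higher by 0.79. Top1, which relieves the twist ahead of forks and of transcription alike, was 33.7, 34.7, 33.6 and 31.8 FPKM against 31.8, 30.6, 31.1 and 30.1 FPKM (0.11 ± 0.03, adjusted p = 0.0209 by limma). The lowest Nrp-1+ library and the highest Nrp-1- library were nearly equal, and Top1 was not called under quantile normalization (adjusted p = 0.0572) or without replicate 1, 2 or 3 of Nrp-1+ iTreg or replicate 2 or 4 of Nrp-1- iTreg (0.0503 to 0.0553), with 0.00669 to 0.0572 over all other settings.

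**Figure D3:**
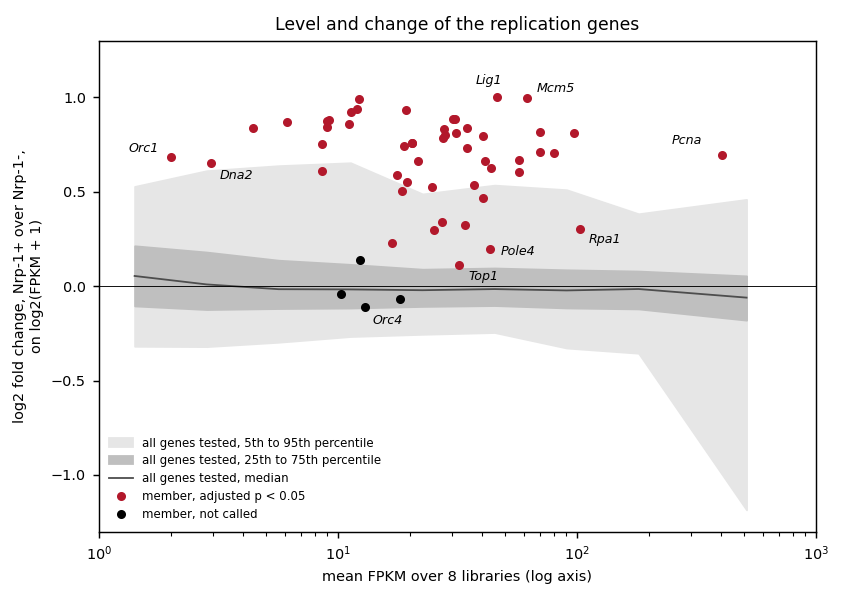
Log2 fold change against mean FPKM over the 8 libraries (log axis) for the 55 replication genes (points, red where called at an adjusted p under 0.05), over the percentiles and median of all genes tested (grey bands and line). The medians of the members lie above those of all genes in each range of level that holds members, with 0.85 at 8 to 16 FPKM and 0.64 at 32 to 64 FPKM against -0.02 and -0.02 for all genes tested, and of the 4 uncalled members Orc3, Orc4 and Orc5 lie within the inner band and Orc2 above it.

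In each range of level that holds members, their median lay above that of all genes, although Orc3, Orc4 and Orc5 lay below it. Between 16 and 32 FPKM the 19 members had a median log2 fold change of 0.74, against -0.02 for all 1992 genes tested in that range, and between 64 and 128 FPKM the 5 members had 0.71, against -0.02 for all 773. At 32 to 64 FPKM the 14 members had 0.64 and all 1448 genes -0.02.

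Some members share sequence with other genes, so that part of their reads may belong to a neighbour. In the GENCODE M21 annotation, 8 members had at least 10% of their exonic bases under an exon of another gene, all on the opposite strand. Below that limit, the largest overlaps on the same strand were 9.66% for Rnaseh2a (with Gm49661) and 8.5% for Pole2 (with Gm49384). Counting by strand would not separate these. The methods of the study name a directional library kit and the labels another kit, and whether reads were counted by strand is not given in the sources used here. The overlap was 78.8% for Fen1 (with Gm10143), 67.3% for Gins2 (with Gse1), 52.5% for Chaf1a (with Ubxn6) and 29.8% for Orc2 (with Nif3l1). Gse1 and Nif3l1 were not called, at log2 fold changes of -0.09 and -0.07, and Ubxn6 was called lower, at -0.15 (adjusted p = 0.0394 by limma). The overlap was 12.7% for Rfc4 (with Eif4a2, called lower at -0.35, adjusted p = 1.94e-05) and 10.7% for Rfc5 (with Wsb2, called lower at -0.14, adjusted p = 0.0217). The partners of Fen1, Rfc2 and Orc1 were not tested. For 12 of the 55 members (21.8%) a protein-coding gene starts within 1000 bases on the opposite strand, facing away, against 12.7% of 9358 tested genes. Of the 11 such partners that were tested, 3 were called higher (Pxmp2 beside Pole by 0.59, Rpusd1 beside Chtf18 by 0.48 and Smyd4 beside Rpa1 by 0.23), 1 lower (Rars2 beside Orc3, -0.12) and 7 not. The members lie on 17 chromosomes.

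Of 29 other replication genes 25 were called higher, 1 lower and 3 not, with a median log2 fold change of 0.54, and 14 were at least 1.5-fold higher. The largest difference was in Dtl (1.04 ± 0.04, 17.6 against 8.05 FPKM), which encodes the ubiquitin ligase subunit that destroys CDT1 in S phase, and the smallest was in Pold4, the small subunit of polymerase δ, which was lower in Nrp-1+ iTreg (-0.23 ± 0.05, 89.8 against 105.3 FPKM, adjusted p = 0.00468 by limma). Ticrr and Topbp1, which help to bring CDC45 to the origin, were higher by 0.89 and 0.79. Genes that feed the fork with deoxynucleotides followed: of 9 tested 8 were called higher, with a median of 0.78, led by the thymidine kinase Tk1 (1.06 ± 0.03). Rrm2b, the ribonucleotide reductase subunit that is known to work outside S phase, was called lower (-0.14 ± 0.04, adjusted p = 0.0281 by limma), although its groups overlapped.

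Among 13 E2F and Rb family genes, 10 were called higher and 3 were not (E2f4, E2f5 and Rbl2), with a median log2 fold change of 0.51. E2f8, a repressor of the E2F programme in S phase, had the largest difference (0.92 ± 0.03), and E2f4, known mainly as a repressor in resting cells, the smallest value (-0.02). All 22 mitotic genes were called higher, with a median of 0.87 and a range from 0.73 for Cdc20 to 0.96 for Aurkb. The members had a median of 0.71 and reached from -0.11 to 1.00, so the genes of the mitotic list were higher as well. Their range was narrower, in a chosen list of 22 genes beside 55. No test of the lists against each other was made.

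**Figure D4:**
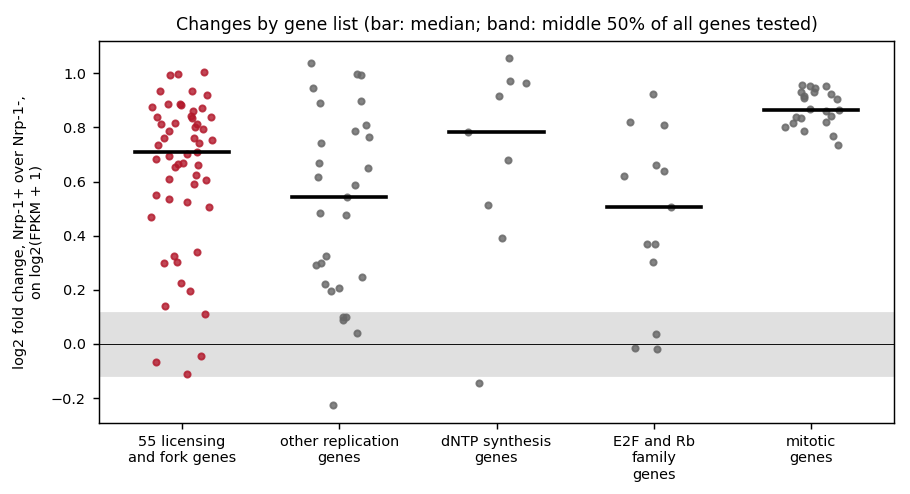
Log2 fold changes on log2(FPKM + 1), Nrp-1+ over Nrp-1- iTreg, of single genes (points) in 5 lists, with list medians (bars) and the middle 50% of all genes tested (grey band, -0.12 to 0.12). The medians are 0.71 for the 55 licensing and fork genes, 0.54 for other replication genes, 0.78 for deoxynucleotide synthesis genes, 0.51 for E2F and Rb family genes and 0.87 for mitotic genes.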

How the data were processed

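RNA sequencing of both iTreg groups (4 libraries each) was analysed from the deposited FPKM table, whose rows are gene symbols. The authors made these values from the reads with the CLC Genomics Workbench and Cufflinks. Per the submitters' processing notes the builds are GRCm38 and mm10, and aligner settings, annotation and strand setting are not given in the sources used here. Since FPKM is scaled by length and library size, models for counts could not be applied.

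Groups came from the sample descriptions. Genes with a mean of at least 1 FPKM were tested on log2(FPKM + 1), a pseudocount of 1, with limma 3.58.1 under R 4.3.3 (moderated variances, trended on intensity) and Benjamini-Hochberg adjustment, and a gene was called at an adjusted p under 0.05. The exact two-sided Mann-Whitney test was run in Python 3.11.15 with scipy 1.17.1. The members, the other lists and the cell type markers were chosen with earlier results of these data known, so no list was tested as a set. In each role the members with the largest and the smallest difference and every uncalled member are given in each library, and the 5 largest differences of all (Lig1, Mcm5, Mcm10, Pole and Chaf1a) with full statistics. These were ranked on the log2(FPKM + 1) scale, and ratios of means rank low genes higher. Of the other lists, the largest and smallest are given, and further genes of these lists and the other members shown by library were named after their values were seen. Pclaf, Adgre1 and Hbb-bs are listed in the table under older symbols, and Hbb-bt was not analysed here.

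Alternatives were pseudocounts of 0.1 and 0.5, no filter, a filter at 5 FPKM, median-of-ratios size factors, quantile normalization, a replicate block, eBayes without trend, each library left out in turn, and, added after the data were examined, the ratio of group means and a correction for GC content and length by natural splines with 5 degrees of freedom (GENCODE M21, available for 94.2% of the tested genes). Relative depth was read from genes under 0.3 FPKM, of which 51.8% to 56.5% stood, within 0.01 on the natural log scale, in a ratio of whole numbers up to 4 to their value in the first library once scaled by depth. Absolute depth is unknown, so no counting interval is given. The code of the fit was run on simulated libraries with known changes, which checks the code and not these data. Promoters are from RefSeq, and gene starts and exons from GENCODE M21.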

Additional observations from a re-analysis of the deposited data

Results flagged for a closer look

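Within each group of 4 libraries, values of the 55 members, Nrp1 and Foxp3 were looked over for a library that lay far from the others, as the gap to its nearest neighbour over the whole range of the group. Of 114 groups examined, 10 held such a library, all of them in members. For independent groups of normal values, 1 in 20, or 5.7, would be expected by chance. The groups share the same libraries and are not independent, so the count does not measure an excess.

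In the Nrp-1+ iTreg libraries, Mcm7 was 120.1 FPKM in replicate 1 against 125 to 126 in the others, Pola2 was 28.0 in replicate 2 against 29.7 to 29.8, and Prim1 was 38.1 in replicate 4 against 40.8 to 41.2. Rfc1 was 31.5 FPKM in replicate 2 against 30.4 to 30.5, and Rfc3 was 27.8 in replicate 3 against 25.1 to 25.5.

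In the Nrp-1- iTreg libraries, Cdt1 was 19.9 FPKM in replicate 3 against 23.2 to 23.7, Mcm6 was 63.1 in replicate 1 against 60.0 to 60.3, and Gins3 was 7.46 in replicate 3 against 6.22 to 6.35. Rfc5 was 20.7 FPKM in replicate 4 against 19.2 to 19.3, and Fen1 was 26.2 in replicate 2 against 24.0 to 24.3. With these libraries included, Nrp-1+ and Nrp-1- iTreg were still without overlap in each of the 10 genes.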

How the results depend on the processing

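Under the 17 settings besides the one reported, 48 to 51 members were called higher and 36 to 39 were at least 1.5-fold higher, and no member changed the direction of a call. The lowest count, 48, is that of the filter at 5 FPKM, which leaves 52 members tested. Median-of-ratios size factors lay between 0.999 and 1.00, so that setting could move the results very little. The median log2 fold change of the members was 0.78 with a pseudocount of 0.1, 0.75 with 0.5 and 0.67 with the correction for GC content and length, and lay between 0.70 and 0.73 with any 1 library left out. Orc4 was the 1 member called lower with that correction, and also without replicate 2 of Nrp-1+ iTreg, so that the count called lower ran from 0 to 1 over the libraries left out. Pole3 and Top1 lost their calls and Orc2 gained one as given above, and the cause was not tested. With a replicate block, 51 members were called higher, the same 51 genes, and over all genes 1931 were higher and 1675 lower in place of 2189 and 2093. Same-numbered libraries did not deviate together (r = -0.54, -0.02, 0.01 and -0.50 for numbers 1 to 4), so the numbers were not taken to pair samples. Some libraries of different number did, with r from 0.47 to 0.60 for Nrp-1+ replicates 2 and 4 with Nrp-1- replicate 1 and Nrp-1+ replicates 1 and 3 with Nrp-1- replicate 4, and the block does not model this. The log2 fold change of Orc1, the lowest member, ran from 0.61 to 1.00 over the settings.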
